A study of Bos taurus with 24 samples.

Results

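LALBA (ENSBTAG00000005859) and SLC2A1 (ENSBTAG00000009617) are 2 of the 24616 gene identifiers counted in liver and mammary gland of dairy cows, and they were chosen by identifier for their part in making milk sugar. LALBA codes for alpha-lactalbumin, the whey protein that binds a galactosyltransferase of the Golgi and turns it to joining galactose to glucose, which makes lactose. SLC2A1 codes for the glucose transporter GLUT1, through which glucose enters the secretory cell from the blood. Lactose holds water in the milk by osmosis, and the amount made is therefore a main determinant of milk volume. The adult liver exports glucose, uses a different main transporter and is not known for making alpha-lactalbumin. The count files give identifiers without gene names, so the names used here rest on the list that defined the pair.

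The study fed 12 lactating cows (Bos taurus) for 12 weeks with either alfalfa hay, a forage from a legume, or corn stover, the residue of the maize plant once the grain is taken, as the base of the diet. Liver and mammary gland were taken at slaughter, giving 6 RNA sequencing libraries for each tissue and diet, 24 in all. The labels name no treatment, strain or genotype beyond diet, and state how much milk each cow gave, its feed intake, its parity and its days in milk. Both tissues listed under a given diet and number carry identical values for these 4 measures and were taken as 1 cow. Alfalfa hay cow 2 and corn stover cow 1 were in parity 2 and all others in parity 3. Days in milk ran from 231 to 246 on alfalfa hay. On corn stover cow 6 was at 228 and the others at 245 to 254, so diet and days in milk were not fully separate. Each piece of tissue holds several cell types, and in such bulk libraries fewer cells of a type and less RNA per cell cannot be told apart. Library totals ran from 22579051 to 37954234 counts, and in mammary gland between 66.7% and 81.7% of reads fell on 32 genes, those among the 10 most abundant of any library. Levels are given as normalised CPM, reads per 1000000 counted reads after trimmed-mean (TMM) scaling between libraries of a tissue, unless another scale is named. Reads depend on transcript length, which was not used here, so levels are compared between libraries and not between the genes.

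LALBA was a milk-gland transcript in these data, and SLC2A1 was found in both tissues. LALBA took 2.32% ± 0.407 of all mammary reads (SD, n = 12), with 374034 reads in the library with fewest and 920045 in the library with most. It ranked 6 by read number in 11 mammary libraries and 7 in corn stover cow 6. In the livers it had at most 179 reads, and 3 livers, those of alfalfa hay cow 6 and corn stover cows 2 and 6, had 0. A count of 0 (3 reads as the limit, counting error only) allows a level of up to 0.0665 to 0.0715 CPM on the scale set over all 24 libraries.

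**Figure D1:**
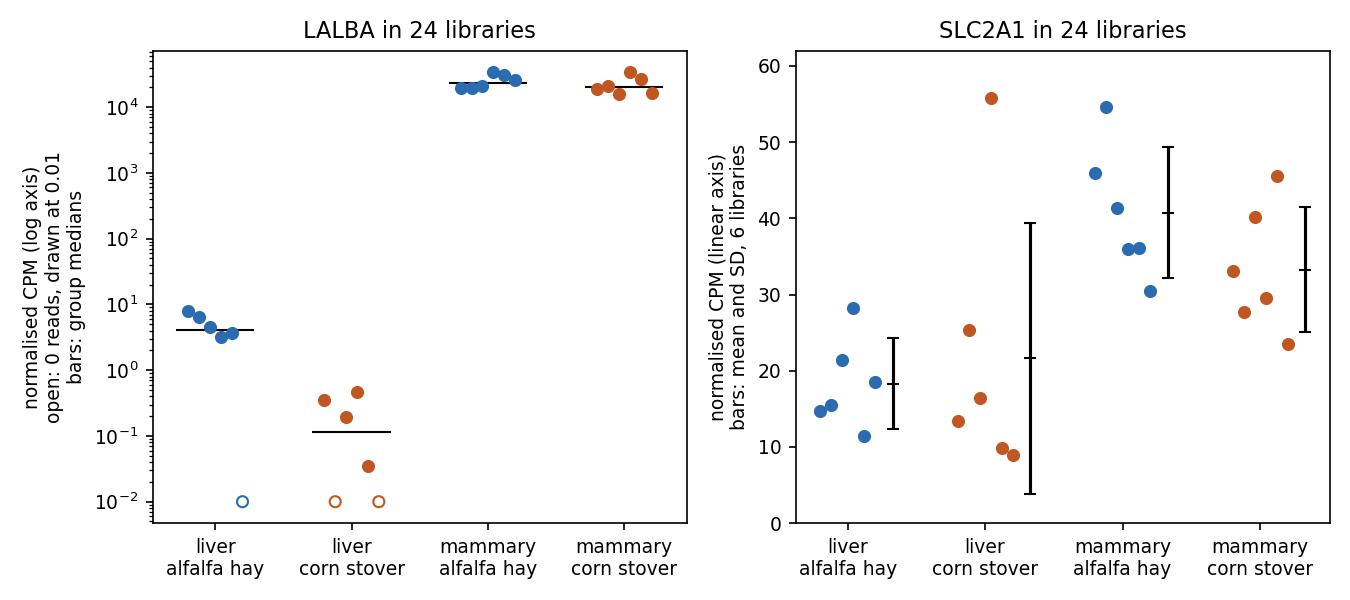
Normalised CPM of LALBA (left, log axis) and SLC2A1 (right, linear axis) in each of 6 libraries for every tissue and diet, scaled within a tissue, so heights are read within liver or within mammary gland. LALBA lies between 15603 and 33950 in mammary gland and at or under 7.92 in liver, while SLC2A1 spans 23.6 to 54.6 in mammary gland and 8.95 to 55.8 in liver.

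The comparison of tissues asked how far each gene belongs to the milk-making gland. LALBA, the lactose synthase partner, stood at 33160 ± 8802 CPM in mammary gland and 1.57 ± 2.00 CPM in liver on the scale set over all 24 libraries (SD, n = 12 each). Its level was higher in mammary gland than in liver in 12 of 12 cows. The ratio was 5048 in alfalfa hay cow 1, the lowest, and at least 349379 in corn stover cow 6, whose liver had no read. The fitted log2 difference was 15.71 ± 0.82 (SE), with a p of 2.78e-15 after Benjamini-Hochberg adjustment in the quasi-likelihood test of edgeR. Over all 13760 genes tested 33.5% were called higher in mammary gland, and 0.0291% had a larger fitted value than LALBA.

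SLC2A1, the glucose carrier, stood at 52.1 ± 12.8 CPM in mammary gland and 14.2 ± 9.13 CPM in liver on that scale. The fitted log2 difference was 1.87 ± 0.24 (SE, with an edgeR adjusted p of 1.33e-07), a 3.66-fold higher level with a 95% interval of 2.60 to 5.15-fold. Mammary gland exceeded liver in 12 of 12 cows, a pattern that 17.4% of the genes tested showed. The ratio ran from 1.04 in corn stover cow 4 through a median of 4.77 to 9.18 in corn stover cow 5. The size depends on the scale. By library totals alone the log2 difference was 0.90 (edgeR adjusted p = 0.00282) while the median of all genes shifted to -0.998, and SLC2A1 was then higher in mammary gland in 9 of 12 cows. With totals taken over the genes outside the 32 most abundant it was 2.38 (edgeR adjusted p = 2.99e-09), with the median of all genes at 0.49. Relative to the median of all genes, SLC2A1 was higher in mammary gland. A change of scale moves all genes nearly alike, so the scales are not separate support for this.

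The diet comparison in mammary gland asked whether the transcripts behind lactose output differed with the forage. Both genes had lower mean levels on corn stover, and neither difference passed the threshold. LALBA ran from 19638 through a median of 23321 to 33818 CPM on alfalfa hay. On corn stover it ran from 15603 through 19946 to 33950 CPM. The groups overlapped, since 3 corn stover cows (1, 3 and 6) lay below every alfalfa hay cow while corn stover cow 4 was the highest of all 12. The means were 25126 ± 6107 and 22128 ± 7019 CPM (SD, n = 6 each), a log2 difference of -0.18 ± 0.26 (SE, with an edgeR adjusted p of 0.951), with a 95% interval from 0.605 to 1.28-fold.

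SLC2A1 ran from 30.5 through a median of 38.7 to 54.6 CPM on alfalfa hay. On corn stover it ran from 23.6 through 31.3 to 45.6 CPM. Corn stover cows 2, 4 and 6 lay below every alfalfa hay cow, alfalfa hay cows 1 and 2 lay above every corn stover cow, and the other 7 cows overlapped. The means were 40.7 ± 8.60 and 33.3 ± 8.24 CPM, a log2 difference of -0.29 ± 0.19 (SE, with an edgeR adjusted p of 0.871), with a 95% interval from 0.618 to 1.08-fold. The intervals leave room for a moderate fall and for a small rise of either gene on corn stover. Over all 12027 genes 0% were called by edgeR, 784 were at an unadjusted p below 0.05, DESeq2 called 42 and limma voom 0. Neither gene was among the DESeq2 calls (DESeq2 adjusted p = 0.973 for LALBA and 0.889 for SLC2A1). The median log2 difference of all genes was 0.0014, and 33.1% of genes had a larger fitted size than SLC2A1. Both genes kept a fitted value below 0 in each of 23 alternative fits, but its size moved with single cows. The LALBA difference was -0.079 without alfalfa hay cow 4, -0.12 without alfalfa hay cow 5, -0.10 without corn stover cow 3, -0.11 without corn stover cow 6 and -0.35 without corn stover cow 4. The SLC2A1 difference was -0.18 without alfalfa hay cow 2, -0.40 without corn stover cow 5 and -0.18 in parity 3 cows only. With days in milk as a covariate the differences were -0.42 for SLC2A1 (edgeR adjusted p = 0.611) and -0.29 for LALBA (edgeR adjusted p = 0.785).

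The spread of LALBA between cows was read on 3 scales. As a share of all reads it was 2.41% ± 0.208 on alfalfa hay, from 2.23% to 2.69%, a coefficient of variation of 8.62%. On corn stover the share was 2.23% ± 0.548, from 1.61% to 2.79%, a coefficient of 24.6%. Corn stover cows 2, 3 and 6 lay below the alfalfa hay range, cows 4 and 5 above it and cow 1 inside it. In normalised CPM the coefficients were 24.3% on alfalfa hay and 31.7% on corn stover. LALBA was also set beside 10 other genes that are abundant in mammary gland and nearly absent in liver. Of the reads of these genes and LALBA together, LALBA took 3.27% ± 0.226 on alfalfa hay and 3.14% ± 0.871 on corn stover. The difference in spread between the diets was not tested. Liver-type reads, the summed level of 60 liver genes as a share of their level in liver, stood at 204 to 1976 ppm in corn stover mammary libraries and at 70.8 to 400.05 ppm on alfalfa hay, with overlapping ranges, and their part in the LALBA spread was not tested. In order of rising LALBA share, corn stover cows 3, 6, 2, 1, 5 and 4 had 1976, 416, 1099, 204, 374 and 1089 ppm. At these shares the median liver level of SLC2A1 corresponds to at most 0.0331 CPM of library totals in a mammary library. A part of liver tissue in the SLC2A1 levels was not tested.

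The number of LALBA reads per SLC2A1 read does not depend on scaling between libraries. It ran from 359.8 through a median of 676 to 941 on alfalfa hay. On corn stover it ran from 388 through 645 to 1147. The ranges overlapped, and the mean log2 ratio differed by 0.10 between the diets (exact permutation test, two-sided, p = 0.764; 924 assignments allow a p as low as 0.00216). The sign of this difference turned without alfalfa hay cow 1 (-0.0039), alfalfa hay cow 2 (-0.056) or corn stover cow 4 (-0.064). Over the 12 mammary libraries Pearson's r of the genes' log2 levels was -0.05, or -0.21 with the diet means removed, values that share the scaling of each library and are given as a description.

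**Figure D2:**
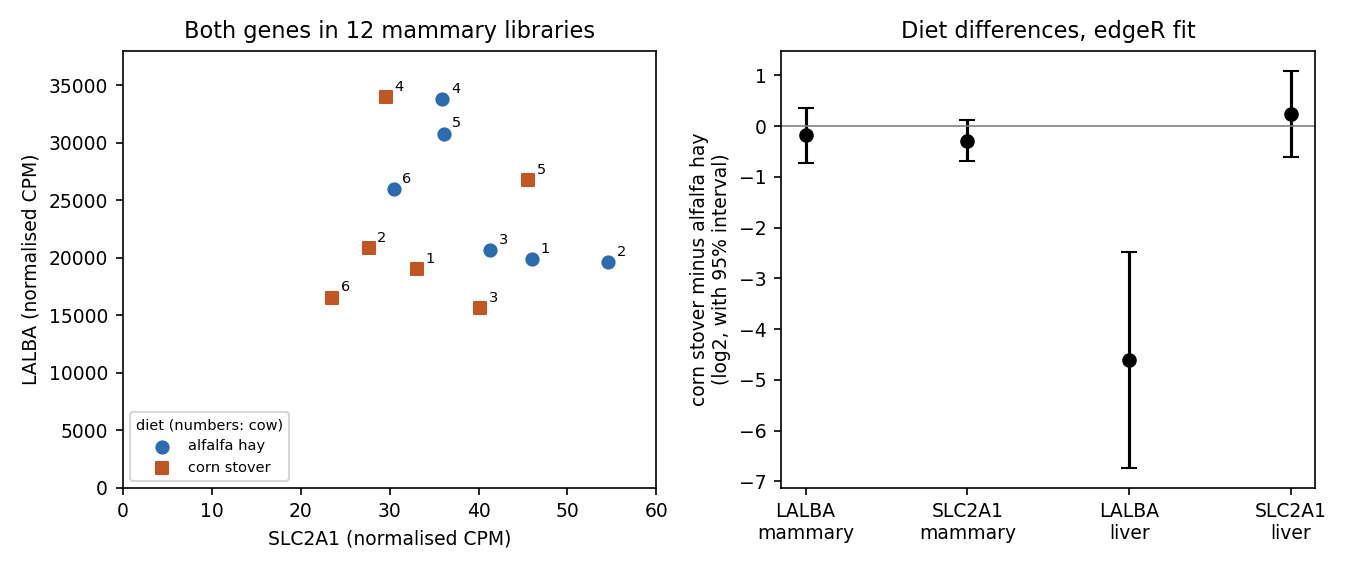
Left, normalised CPM of LALBA against SLC2A1 in 12 mammary libraries, marked by diet and cow number, with no common trend (r = -0.05). Right, fitted corn stover minus alfalfa hay differences on the log2 scale with 95% intervals, which include 0 for both genes in mammary gland and for SLC2A1 in liver, while that of LALBA in liver spans -6.74 to -2.49 with an adjusted p of 0.837 over all genes.

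Milk yield was set beside both genes as lactose output bears on milk volume. Cows on alfalfa hay gave 26.3 ± 2.66 and those on corn stover 20.4 ± 2.03 kg of milk per day (SD, n = 6 each), so the relation was taken within each diet. LALBA gave negative coefficients with yield on both diets, none past the test. The cows with the highest LALBA, corn stover cow 4 at 33950 CPM and alfalfa hay cow 4 at 33818 CPM, gave 19.6 and 23.3 kg per day. Alfalfa hay cow 2, with the highest yield of 29.0 kg per day, had 19638 CPM, the lowest LALBA of its diet. Pearson's r was -0.37 on alfalfa hay (exact permutation p = 0.451, adjusted over 4 correlations 0.602) and -0.018 on corn stover (exact permutation p = 0.975, adjusted 0.975). Spearman's rho was -0.60 (exact permutation p = 0.242, adjusted 0.474) and -0.31 (exact permutation p = 0.564, adjusted 0.564). Without the 2 cows farthest from the median yield, r came to 0.35 for alfalfa hay and to -0.92 for corn stover (n = 4), so the sign on alfalfa hay rests on those cows. Single cows moved r too. On alfalfa hay it was -0.015 without cow 4, -0.19 without cow 2, -0.58 without cow 1 and -0.74 without cow 5. On corn stover it was above 0 without cow 1, 3 or 4, at most 0.21, and was -0.036 without cow 5 and -0.62 without cow 6.

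SLC2A1 gave positive coefficients with yield on both diets, and neither passed the test. Alfalfa hay cow 2 had both the highest yield and the highest SLC2A1, 54.6 CPM, and corn stover cow 6 had both the lowest yield, 17.1 kg per day, and the lowest SLC2A1, 23.6 CPM. Pearson's r was 0.53 on alfalfa hay (exact permutation p = 0.274, adjusted 0.547) and 0.53 on corn stover (exact permutation p = 0.267, adjusted 0.547). Spearman's rho was 0.71 (exact permutation p = 0.136, adjusted 0.474) and 0.49 (exact permutation p = 0.356, adjusted 0.474). Without the 2 cows farthest from the median yield r came to -0.087 for alfalfa hay and to 0.43 for corn stover (n = 4). Leaving out 1 cow at a time, r ran from 0.28 (without cow 2) to 0.74 on alfalfa hay, with 0.33 without cow 6, and from 0.053 (without cow 6) to 0.72 on corn stover. The relation thus rests on the outermost cows on alfalfa hay and on cow 6 on corn stover. In a fit over all genes with diet as a term, the fitted slope of SLC2A1 was 0.073 ± 0.043 on the log2 scale per kg of milk per day (SE, with an edgeR adjusted p of 0.530), with an interval from -0.018 to 0.163. The slope of LALBA was -0.037 ± 0.059 (SE, with an edgeR adjusted p of 0.817), with an interval from -0.164 to 0.089. Of 12027 genes 0% were called by edgeR, DESeq2 or limma voom, and 1178 were at an unadjusted p below 0.05 in edgeR. The SLC2A1 slope stayed above 0 in each of 22 alternative fits, from 0.052 to 0.125, and passed the threshold in none. The slope of 0.125 came by library totals alone, where the median slope of all genes was 0.0529 against 0.0028 in the main fit. By library totals the LALBA slope was 0.017, above 0 but below the median of all genes, as the LALBA slope was in the main fit. The sign of the LALBA slope thus depends on the scale, and its place below the median was kept in these 2 fits.

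**Figure D3:**
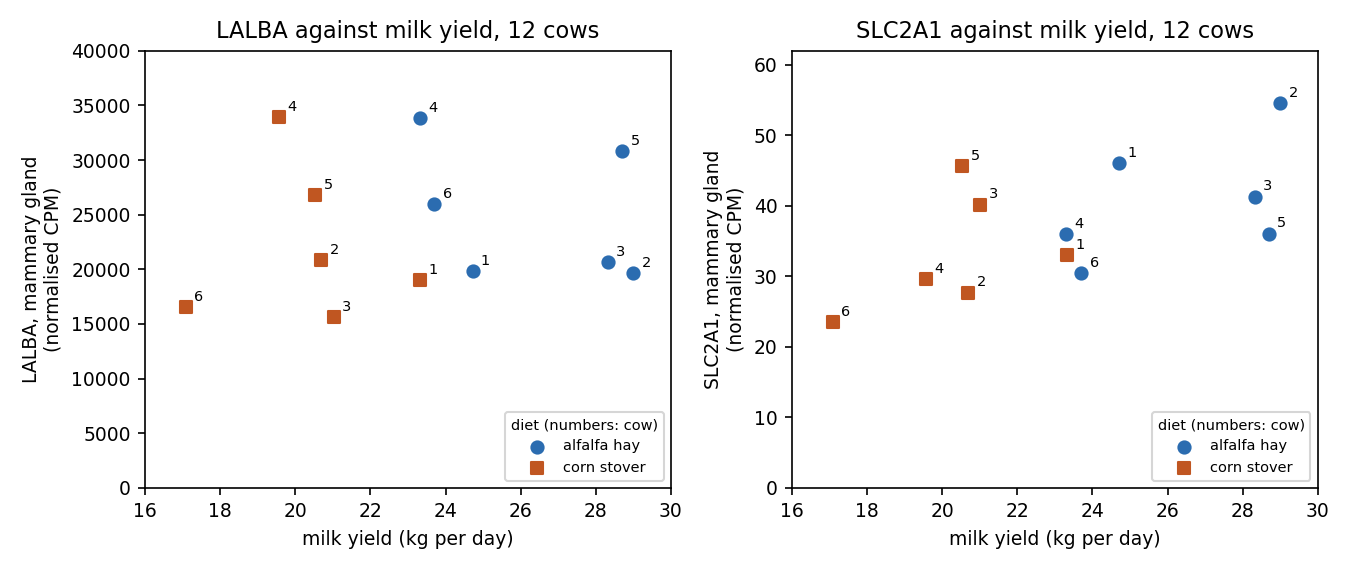
Normalised CPM of LALBA (left) and SLC2A1 (right) in mammary gland against milk yield in kg per day, marked by diet and cow number. The highest LALBA levels lie at 19.6 and 23.3 kg per day, whereas the highest SLC2A1 level is in the cow with 29.0 kg per day and the lowest in the cow with 17.1 kg per day.

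The diet comparison in liver asked whether either gene differed with forage outside the udder. LALBA reads in liver fell into 2 sets that did not follow diet fully. Alfalfa hay livers 1 to 5 had 136, 179, 135, 90 and 90 reads, and alfalfa hay liver 6 had 0. The corn stover livers had 8, 0, 7, 14, 1 and 0 reads. The means were 4.29 ± 2.77 and 0.174 ± 0.199 CPM, a log2 difference of -4.61 ± 0.996 (SE, with an edgeR adjusted p of 0.837 over 12929 genes, of which 0% were called). Of all genes tested, 0.0155% had a larger fitted size. Both genes passed the filter on low counts in each main comparison, LALBA in liver mainly through alfalfa hay livers 1 to 5. Its size in liver is set by those livers against near-absent reads elsewhere, so its rank and p-values describe these libraries only. The call depends on the fit, with an adjusted p of 0.0408 when all 24 libraries entered 1 edgeR fit, 0.219 with DESeq2 and 0.0570 without alfalfa hay liver 6 (edgeR).

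Other mammary-type transcripts were also higher in alfalfa hay livers 1 to 5. In alfalfa hay livers 1 to 5, LALBA stood at 143 to 274 ppm of its median mammary level, and the 10 other mammary-type genes together stood at 147 to 298 ppm of theirs. In the other 7 livers, LALBA stood at 0 to 20.7 ppm and those genes at 1.49 to 39.5 ppm. In livers 1 to 5 the quotient of the 2 values was 0.741 to 1.11, where 1 is the proportion in mammary gland. In the other 7 livers, with 0 to 14 LALBA reads, it was 0 to 1.37. The same 5 libraries carry a leading letter L in the header of their count column, unlike the other 19 files. A letter for mammary gland was not looked for. With the kind of header as a term, diet rests on alfalfa hay liver 6 alone and the LALBA difference was 5.31 (edgeR adjusted p = 0.9996). Diet and the header kind cannot otherwise be told apart for these livers, and the source of the reads was not tested.

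**Figure D4:**
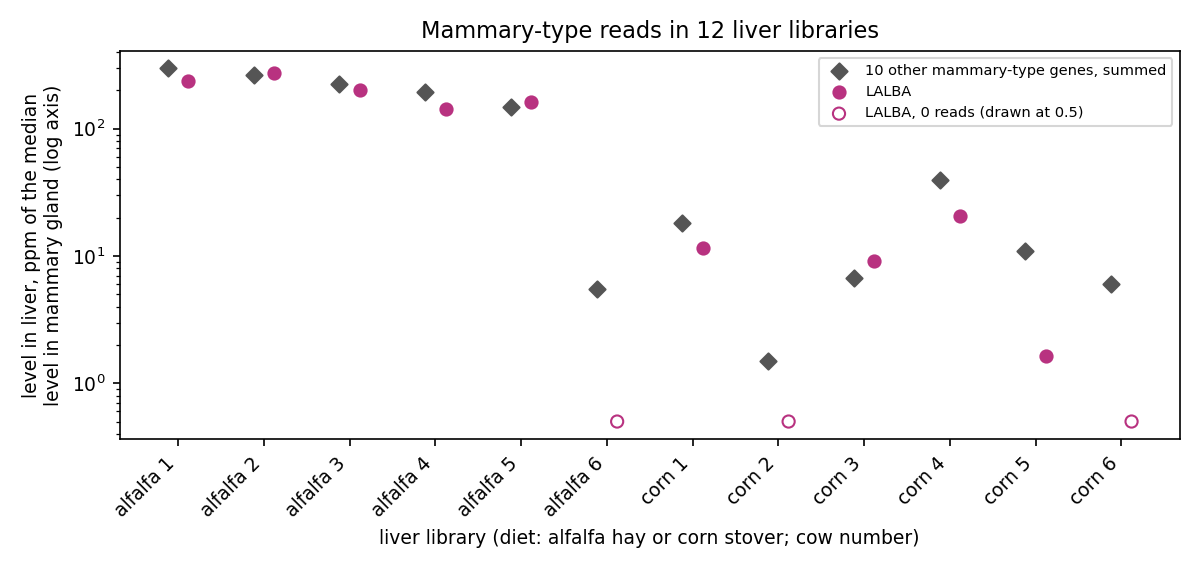
Level of LALBA and summed level of 10 other mammary-type genes in each of 12 livers, in ppm of their median level in mammary gland (log axis). Both lie at 143 ppm or more in alfalfa hay livers 1 to 5 and at 39.5 ppm or less in the other 7 livers.

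The mean difference of SLC2A1 between the diets in liver was smaller than the spread of the cows. It ran from 11.4 through a median of 17.0 to 28.3 CPM on alfalfa hay. On corn stover it ran from 8.95 through 14.9 to 55.8 CPM. The groups overlapped, with 2 corn stover livers below every alfalfa hay liver and 1, that of cow 4, above every other liver. The means were 18.3 ± 5.97 and 21.6 ± 17.8 CPM, a log2 difference of 0.24 ± 0.40 (SE, with an edgeR adjusted p of 0.99998), with a 95% interval from 0.655 to 2.13-fold. Without corn stover liver 4 the log2 difference was -0.31 (edgeR adjusted p = 0.9999), and the sign also turned with limma voom (-0.024), with days in milk as a covariate (-0.38) and with the replicate number as a block (-0.0088). At the share of mammary-type reads in the livers, the median mammary level of SLC2A1 corresponds to at most 0.0108 CPM of library totals. A part of milk-gland tissue in these levels was not tested.

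The test of whether the diet difference itself differed between tissues called 0% of 13760 genes in edgeR, with 700 at an unadjusted p below 0.05. LALBA had a log2 interaction of 4.39 ± 1.04 (SE, with an edgeR adjusted p of 0.305). Its diet differences were -0.18 in mammary gland and -4.61 in liver. DESeq2 called the LALBA interaction (DESeq2 adjusted p = 0.000181, among 74 calls) while limma voom called 0 genes. The interaction thus follows the liver difference, which comes from the reads of alfalfa hay livers 1 to 5, and their source was not tested. The LALBA value was 4.37 in the fit blocked by cow (edgeR adjusted p = 1). SLC2A1 had an interaction of -0.55 ± 0.47 (SE, with an edgeR adjusted p of 0.9999), which turned to 0.032 without corn stover cow 4.

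Genes with the most similar course over the 12 mammary libraries were sought among 4513 others with a mean of at least 10 CPM. The 2 nearest to LALBA were ENSBTAG00000007721 (r = 0.87, 22.4 to 34.9 CPM) and ENSBTAG00000016959 (r = 0.86, 15.7 to 33.5 CPM). The 2 nearest to SLC2A1 were ENSBTAG00000026461 (r = 0.92, 10.7 to 36.7 CPM) and ENSBTAG00000014526 (r = 0.91, 5.28 to 16.8 CPM). With the diet means removed these values were 0.87, 0.85, 0.91 and 0.93. They are the highest of many correlations over 12 libraries and describe likeness in these libraries. SLC2A1 ranked 2981 among the genes ordered by likeness to LALBA.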

How the data were processed

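Each of 24 deposited files holds raw read counts per Ensembl bovine gene for 1 library. They were made with build UMD3.1, HTSeq 0.6.1, SAMtools 1.1 and TopHat2 2.0.9, per the submitters' processing notes. The annotation, strand setting, read filters and order of steps are not stated there, so reads shared with overlapping or antisense genes cannot be traced. Of 24616 identifiers, 0 matched the gene table used here. Planned lists of pathway genes and cell type markers, sequences and positions are therefore not given, and the tissue labels were not checked against known markers.

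The counts were analysed with edgeR 4.0.16 in R 4.3.3: filterByExpr (minimum count 10, total 15), TMM, quasi-likelihood tests over all genes, Benjamini-Hochberg adjustment, threshold 0.05. Standard errors are the log2 difference over the square root of F. Diet was fitted within each tissue (12 libraries), tissue and interaction over all 24, and milk yield with diet as a term. Correlations and ratios used exact permutation by full enumeration (numpy 2.4.6), with ranks for Spearman's rho from scipy 1.17.1. Alternatives used DESeq2 1.42.0 and limma 3.58.1. The main comparisons were also run on simulated data with edgeR, DESeq2 and limma voom. The other alternative settings and the permutation tests were not. Mammary-type and liver-type genes, chosen from these libraries, had a median of at least 1000 CPM of library totals in their own tissue and 1000 times that in the other. Named genes are the 2 members and, for each, the 2 most similar genes. The members, lists and tests were chosen with earlier results of these data known. Liver and mammary libraries of a cow were paired by their labels, and their deviations correlated at -0.15 to 0.28. That the 6 cows of a diet were separate animals rests on their labelled values.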

Additional observations from a re-analysis of the deposited data

Results flagged for a closer look

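SLC2A1 in liver of corn stover cow 4 stood far from the other corn stover livers, at 55.8 normalised CPM (1665 reads) against 25.4 CPM in the next. Of 10 groups of 6 values checked for such a sample, 1 held one, where chance flags about 1 in 20. In mammary gland the same cow had 29.6 CPM of SLC2A1. Its liver held 39.5 ppm of mammary-type reads, at which the median mammary level of SLC2A1 corresponds to 0.0014 CPM of library totals. The cause of the high value was not tested.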

How the results depend on the processing

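The tissue difference of both genes kept its direction and call in all 22 alternatives, from 14.76 to 16.86 for LALBA and from 0.90 to 2.38 for SLC2A1 (log2). The mammary diet difference of both genes kept its direction without a call in all 23, and leaving out each library it ran from -0.35 to -0.079 for LALBA and from -0.40 to -0.18 for SLC2A1. The number of genes called for diet in mammary gland moved from 0 to 42 with DESeq2 and to 12 with the replicate block. In liver it moved to 3 with DESeq2 and to 3 with all 24 libraries in one fit, which also called LALBA (-4.57). The interaction count moved to 74 with DESeq2, which called LALBA (4.45). Both LALBA calls come from the reads of alfalfa hay livers 1 to 5. The yield count moved to 2 with no diet term.

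The LALBA diet difference in liver turned to 5.31 with the header kind as a term and was not tested at 1 CPM in 6 libraries, a filter it did not pass. SLC2A1 in liver turned to -0.024 with limma voom, -0.38 with days in milk as a covariate and -0.0088 with the replicate block, and ran from -0.31 to 0.41 leaving out each library. The LALBA slope on yield turned to 0.017 by library totals (all-gene median 0.0529) and 0.0074 with no diet term. Its correlation on corn stover turned to 0.396 by library totals and 0.000399 without the most abundant genes, and ran from -0.62 to 0.21 leaving out each cow. The other correlations with yield ran, leaving out each cow, from -0.74 to -0.015 for LALBA on alfalfa hay. For SLC2A1 they lay between 0.28 and 0.74 on alfalfa hay, and between 0.053 and 0.72 for the corn stover cows. The LALBA to SLC2A1 ratio turned to -0.019 in parity 3 cows and ran from -0.064 to 0.249 leaving out each library. Leaving out each cow, the SLC2A1 interaction ran from -0.81 to 0.032 and the interaction count from 0 to 2, the latter without alfalfa hay cow 4. These values are differences under the threshold, and the cause of each turn was not tested.

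Same-numbered cows of the 2 diets are different animals. Deviations of same-numbered libraries correlated at 0.051 to 0.61 in liver and -0.25 to 0.28 in mammary gland, and 8 of 12 livers and 6 of 12 mammary libraries correlated best with their own number. The main fits left the replicate number out. With the replicate block the mammary differences were -0.20 for LALBA and -0.30 for SLC2A1, and the ratio kept 0.10 by sign flips of same-numbered pairs. In liver that block lowered the SE from 0.996 to 0.681 for LALBA and from 0.400 to 0.246 for SLC2A1, and neither gene was called. The cow as a block changed no call of either gene. Depth limits LALBA in liver, where 8 of 12 livers had more than 3 reads.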
